A study of Mus musculus with 12 samples.

Results

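The comparison described here asks what AICAR added to gene expression in quadriceps muscle of mice that also received GW1516. Its members are 6 of the 12 arrays of the study, chosen by their titles: 3 of mice given GW1516 with AICAR, called the combination arrays, and 3 of mice given GW1516 alone. C57Bl/6J mice received GW1516 at 5 mg/kg/day, with or without AICAR at 250 mg/kg/day, for 6 days. A further 3 arrays of vehicle-treated mice and 3 of mice given AICAR alone, at the same dose and over the same time, provide the AICAR difference without GW1516. All mice were of that strain, and their age, their sex and the route of dosing were not stated. Each array measured RNA pooled from 3 mice. Whether the same animals went into several pools is not stated in the labels, and p-values cover only the variation among the pools. Of 18 fast-twitch fibre genes, which mark the main fibres of this muscle, 18 passed the filter on dim probe sets. So did 538 of all 610 genes listed here, and the count does not set fast-twitch genes apart.

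AICAR is taken up by cells and phosphorylated to ZMP, which mimics AMP and activates the AMP-activated protein kinase (AMPK), the enzyme that senses falling energy supply in muscle. GW1516 binds the nuclear receptor PPARδ, which turns on genes of fatty acid uptake and oxidation in muscle. AMPK acts on metabolic enzymes by phosphorylation, and also on transcription through coactivators, FOXO factors and clock proteins, so that its effects on messenger RNA can fall on genes that PPARδ also controls.

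The deposited values are signal intensities in arbitrary units with 1 value per probe set, and each array had a trimmed mean of 200. Levels of different genes cannot be compared on this scale. The median signal was 45.4 to 49.1 on the GW1516 arrays and 50.6 to 52.0 on the combination arrays, which did not overlap. An exact two-sided permutation test of 3 arrays against 3 cannot give a p below 0.1. The 3' to 5' ratio of Gapdh, a measure of RNA integrity, was 0.838 to 0.863 and 0.831 to 0.870 in these groups. The second GW1516 array stood apart from the other 11: its score on the first principal component, which held 13.4% of the variance, was 45.9, against -18.7 to 6.77 elsewhere. It had the lowest signal of the 6 arrays for 27.2% of genes and the highest for 19.7%, where each other array had the lowest for 12.6% to 15.7%. Results that rest on it are given with and without it.

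No gene passed the test for a difference between combination and GW1516. Of 12771 genes, limma called 0 (0%) at an adjusted p below 0.05, and the smallest adjusted p was 0.193. An unadjusted p below 0.05 was reached by 1326 genes, which is 10.4%, with 658 (5.15%) higher and 668 (5.23%) lower with both drugs. The arrays did not overlap for 1641 genes (12.8%), of which 865 (6.77%) were higher and 776 (6.08%) lower. The median standard error of a difference was 0.19 on the log2 scale, and 351 genes differed by more than 1 on that scale. Without the second GW1516 array, limma again called 0 genes, and 1104 (8.64%) had an unadjusted p below 0.05, 509 (3.98%) of them higher. In that fit 48.6% of genes lay above 0 and 51.4% below. Of the genes with an unadjusted p below 0.05, 673 were in both sets, and 673 of those had the same sign. Both fits use all the other arrays, so this shared sign is a description and no separate test. The count of calls depended on the other GW1516 arrays: limma called 10 genes without the first and 2 without the third. The median difference over all genes was 0.01, 52.1% lay above 0 and 47.9% below. With each array centred on its median, that median was -0.10 and the share above 0 was 33.7%. The genes with an unadjusted p below 0.05 then numbered 247 higher and 1583 lower, so small differences near 0 have no settled direction.

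The gene with the smallest p among those lower with both drugs was Pfkfb3, which encodes a kinase that makes fructose 2,6-bisphosphate, the activator of glycolysis at phosphofructokinase. Its signal was 2122, 1907 and 1342 on the GW1516 arrays and 907, 492 and 779 on the combination arrays. All 3 combination arrays lay below all 3 GW1516 arrays. The difference was -1.32 ± 0.22 (SE, n = 3 arrays a group) on the log2 scale, with a 95% confidence interval from -1.80 to -0.85 and an adjusted p of 0.193 by limma. Leaving out 1 GW1516 array at a time gave -1.19, -1.26 and -1.52, and a further Pfkfb3 probe set gave -0.86. Without GW1516, the signal was 3954, 3226 and 3151 with vehicle and 1668, 1551 and 1092 with AICAR, a difference of -1.28. The 2 AICAR differences, with and without GW1516, thus differed by -0.05 ± 0.31 (SE). RefSeq gives Pfkfb3 more than 1 start, and in 1 of the 2 windows searched, the 250 bases before the start at chr2:11502091-11502340 (GRCm38.p6, minus strand), the E-box CACGTG begins 53 bases before the start. CACGTG is the palindromic site of clock and other basic helix-loop-helix factors, and it reads the same on both strands. Within 250 bases before a start, CACGTG was found for 6.86% of all 27025 genes with a window. The Pfkfb3 window is shown because this gene had the smallest p among those lower with both drugs, with the E-box in capitals.
Pfkfb3: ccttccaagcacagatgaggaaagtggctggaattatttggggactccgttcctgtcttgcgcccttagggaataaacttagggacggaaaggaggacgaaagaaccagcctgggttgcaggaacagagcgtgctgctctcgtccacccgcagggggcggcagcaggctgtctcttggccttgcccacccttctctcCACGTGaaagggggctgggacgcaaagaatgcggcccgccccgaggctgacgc

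Several clock genes stood lower with both drugs. Of 17 measured members of the clock list, 4 were lower with an unadjusted p below 0.05 (23.5%, against 5.23% of all genes), 0 were higher, and the median over the list was -0.01. That median was -0.19 without the first GW1516 array, and 1 member was higher with such a p without the second. Nr1d1, which encodes the repressor REV-ERBα, had signals of 1105, 668 and 727 with GW1516 and 524, 493 and 511 with both drugs. The combination arrays were all lower and close together, while the first GW1516 array was well above the other two. The difference was -0.67 ± 0.16 (SE, n = 3), with an adjusted p of 0.251 by limma, and it was -0.45 without the first GW1516 array and -0.82 without the second. For Bhlhe40, whose product DEC1 represses E-box genes, signals were 2091, 1304 and 1514 against 1219, 1047 and 1236. Again no combination array reached the lowest GW1516 array, and the difference was -0.46 ± 0.15, or -0.27 without the first GW1516 array and -0.61 without the second. Ciart, a repressor within the clock, read 301, 203 and 259 with GW1516 and 230, 132 and 165 with both drugs. The highest combination array overlapped the lowest GW1516 array, and the difference was -0.56 ± 0.19. Clock itself, the activating partner of BMAL1 and named here after its values were seen, differed by -0.48 ± 0.17, with 198, 264 and 159 against 146, 143 and 146. Per2, an inhibitor of that pair and also named after its values were seen, lay the other way at 0.30 ± 0.16, without overlap.

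E-boxes were looked for in the 250 bases before the start of the clock genes. CACGTG was found for 5 of the 15 measured clock genes that had a window and for 6.86% of all 27025 genes with one. It was present 3 times in the Ciart window, beginning 116, 58 and 44 bases before the start, and was not found in that of Nr1d1. Bhlhe40 is named only. The Ciart window, chr3:95882229-95882478 (GRCm38.p6, minus strand), is shown with its E-boxes in capitals. A match to these letters is a description of the sequence and no evidence of binding.
Ciart: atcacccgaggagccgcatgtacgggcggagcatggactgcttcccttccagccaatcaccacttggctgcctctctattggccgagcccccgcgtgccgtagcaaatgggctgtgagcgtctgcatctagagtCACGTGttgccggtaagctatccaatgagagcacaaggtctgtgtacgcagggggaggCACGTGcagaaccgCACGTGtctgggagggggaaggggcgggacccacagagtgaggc

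**Figure D1:**
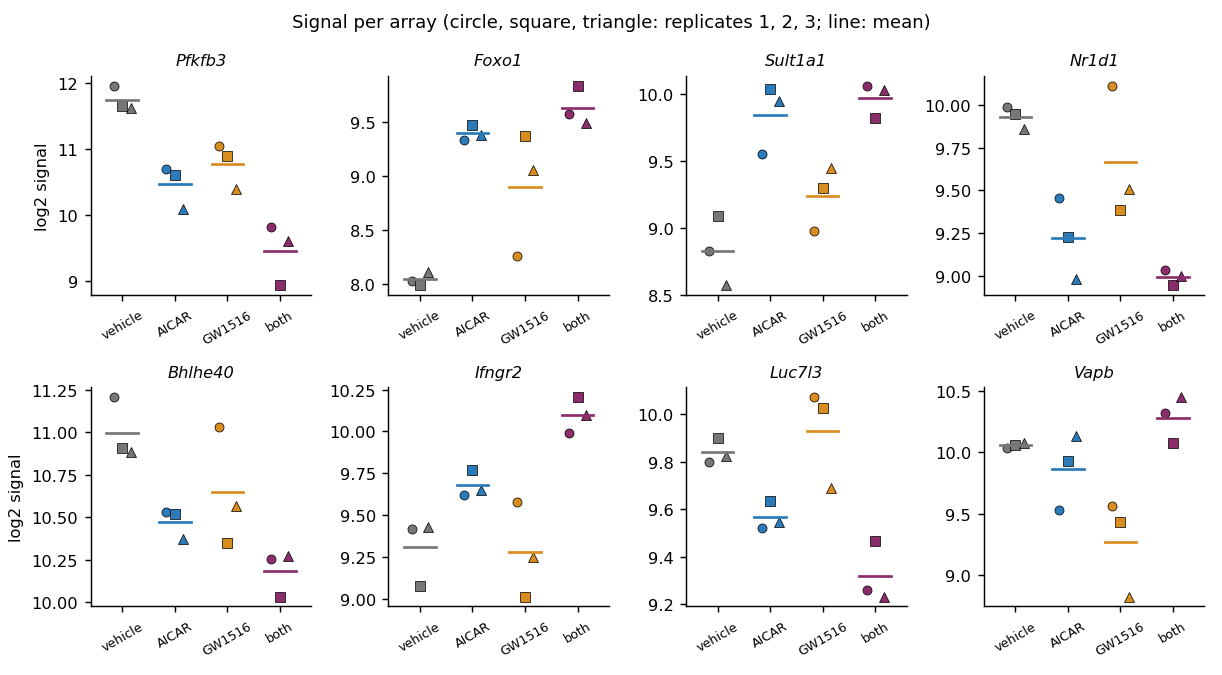
Log2 signal of 8 genes on each of the 12 arrays, by group, with replicates 1 to 3 as circles, squares and triangles and a line at the group mean. Each panel has its own vertical scale. Pfkfb3, Nr1d1, Bhlhe40 and Luc7l3 had all combination arrays (labelled both) below all GW1516 arrays, and Foxo1, Sult1a1, Ifngr2 and Vapb had them above.

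Foxo1, the transcription factor of fasting and atrophy programmes, was higher with both drugs. Its signals were 307, 660 and 532 with GW1516 and 763, 910 and 717 with both drugs, and the groups did not overlap. The difference was 0.74 ± 0.20 (SE, n = 3), with an adjusted p of 0.293 by limma, and it was 0.42 without the first GW1516 array and 0.97 without the second. With AICAR alone it was 1.35, from 262, 254 and 276 to 645, 709 and 667. Sult1a1, a sulfotransferase for phenolic compounds, read 504, 628 and 699 against 1065, 902 and 1045. No arrays overlapped, and the difference of 0.73 ± 0.16 stood beside 1.01 with AICAR alone. Noct, the rhythmic gene of nocturnin, differed by 0.55 ± 0.16 and 0.72 in these comparisons. Adamtsl4, a secreted matrix protein, differed by 0.71 ± 0.17 and 0.68, and the alcohol dehydrogenase Adh1 by 0.61 ± 0.18 and 0.80. Serpinf2, the plasmin inhibitor, differed by -1.62 ± 0.48 and -2.04, but the third combination array read 84.0 where the other two read 18.9 and 19.2. Cited4, a coregulator linked to exercise growth of the heart, differed by -0.29 ± 0.14 and -0.79, and Pnmt, the enzyme that makes adrenaline, by -0.60 ± 0.23 and -1.21. Noct, Adamtsl4, Adh1, Serpinf2, Cited4 and Pnmt were chosen after their values were seen.

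The comparison of AICAR with vehicle shares no array with the one described here, so their values can be set side by side. Over 12771 genes the 2 sets of log2 differences had a Pearson r of 0.13 and a Spearman rho of 0.12, with array scaling in common and genes that are not independent of each other. The sign was the same for 53.2% of all genes. Among the 885 genes (6.93%) with an unadjusted p below 0.05 for AICAR alone it was the same for 63.5%, and among the 210 with a p below 0.01, for 72.4%. Without the second GW1516 array these shares were 54.4%, 65.8% and 75.7%. For the 20 genes with the smallest p for AICAR alone the sign was shared by 17, the exceptions being Lppos, Slc30a1 and Polh. Over those 20 genes the median size of the difference was 0.77 with AICAR alone, and towards the same sign it was 0.22 with GW1516 present. Genes picked for a small p have overstated differences in the comparison that picked them, so the drop in size is a description.

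**Figure D2:**
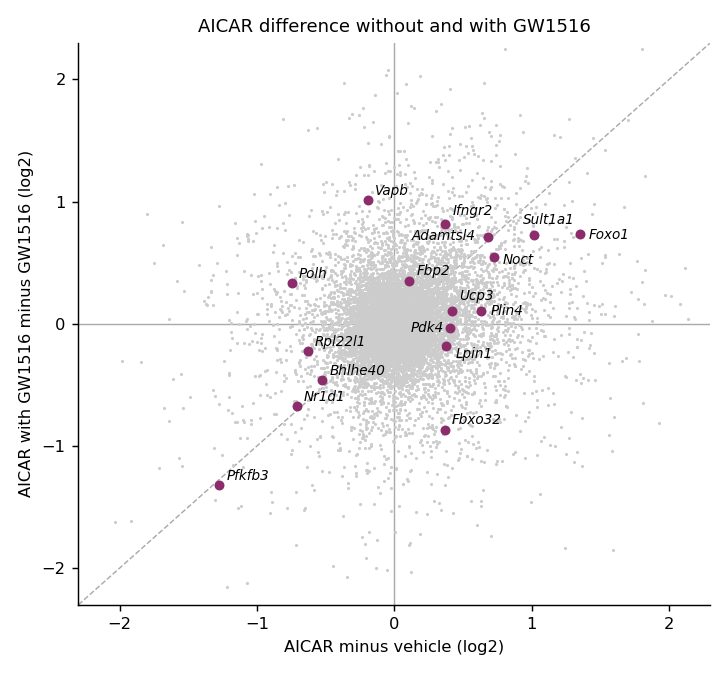
Log2 difference of AICAR against vehicle (horizontal) and of AICAR with GW1516 against GW1516 (vertical) for each gene, with named genes in purple and a dashed line where both are equal. Pfkfb3, Nr1d1 and Bhlhe40 lie near the line, Rpl22l1, Plin4 and Foxo1 lie nearer to 0 on the vertical scale, and 8 genes lie outside the axes that reach 2.3 in either direction.

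For 3 metabolic or ribosomal genes the difference was smaller with GW1516 present or had the other sign. Rpl22l1, a ribosomal protein paralogue, was the only gene called for AICAR against vehicle (1 of 12771, 0.00783%), at -0.63. With GW1516 its signals were 3665, 3493 and 3164, against 2931, 2960 and 2939 with both drugs. The arrays did not overlap, but the difference was -0.22 ± 0.07. Plin4, which coats lipid droplets, differed by 0.63 with AICAR alone, from 2761, 2726 and 2731 to 3828, 4447 and 4503. Under GW1516 it read 4310, 5488 and 4357, and with both drugs 4789, 5318 and 5018, groups that overlapped and differed by 0.10 ± 0.10. Only the second GW1516 array did not lie below the combination arrays, and without it the difference was 0.22. Lpin1, a phosphatidate phosphatase and coactivator, read 6155, 7551 and 6301 with GW1516 and 5787, 5802 and 6015 with both drugs. The combination arrays all lay lower, by 0.18 in the mean, while with AICAR alone all 3 arrays lay above vehicle, by 0.38. Without the second GW1516 array the Lpin1 difference between combination and GW1516 was -0.086. The interaction, which tests whether the 2 AICAR differences differ, was 0.41 for Rpl22l1, -0.53 for Plin4 and -0.56 for Lpin1, each with an adjusted p of 0.703 by limma. Limma called 0 of 12771 genes (0%) in the interaction, and 848 (6.64%) had an unadjusted p below 0.05.

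No target gene of PPARδ among those of fatty acid use was called. Of 19 measured PPAR targets, 10 lay above 0 and 9 below, 0 of them had an unadjusted p below 0.05 in either direction, and the median was 0.06. Without the second GW1516 array 15 lay above 0, the median was 0.13, and 1 was higher with such a p. Pdk4, the kinase that shuts off pyruvate dehydrogenase, read 5172, 10280 and 5612 with GW1516 and 8196, 5353 and 6321 with both drugs. The second GW1516 array was the highest of the 6, and the difference of -0.03 ± 0.24 was 0.28 without it. Ucp3, a mitochondrial carrier, read 2301, 3218 and 2559 against 2722, 2854 and 3050, which overlapped and differed by 0.11 ± 0.16. Its difference was 0.24 without the second GW1516 array, the only one that did not lie below the combination arrays. Angptl4, an inhibitor of lipoprotein lipase, differed by -0.16 ± 0.36, and the acyl-CoA dehydrogenase Acadl by 0.07 ± 0.11. Mlycd, which removes the malonyl-CoA block on fatty acid import, differed by -0.20 ± 0.18, or 0.10 without the second GW1516 array. With all arrays kept, Slc25a20, the carnitine carrier, was the PPAR target without overlap, at 1549, 1542 and 1450 against 1599, 1620 and 2043. Its difference was 0.20 ± 0.11. Cpt1b was not among the genes tested. Of 22 measured genes of mitochondrial fatty acid oxidation, 15 lay above 0, with a median of 0.06. The median of all genes was exceeded by 14 of them as deposited, and by 14 with quantile normalization. Median centring shifts every gene of an array alike, so it cannot change such a count. Hadh, at 0.22 ± 0.08, was the member with an unadjusted p below 0.05 (4.55%, against 5.15% of all genes higher). Among 20 genes of lipid uptake and storage that member was Abhd5, the activator of the lipase ATGL (5%, against the same 5.15%). It read 465, 500 and 453 with GW1516 and 559, 536 and 674 with both drugs, with no overlap and a difference of 0.31 ± 0.10, while its other probe set gave -0.41.

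In carbohydrate metabolism the members beside Pfkfb3 differed by less. Fbp2, the muscle fructose bisphosphatase that opposes phosphofructokinase, read 2448, 1717 and 2387 with GW1516 and 2622, 2982 and 2661 with both drugs. All combination arrays lay above, by 0.35 ± 0.13, and by 0.19 without the second GW1516 array. Gyg, the glycogen primer glycogenin, differed by -0.38 ± 0.09, at 7212, 9547 and 7492 against 6335, 6254 and 5921, with no overlap. Hk2, the hexokinase of insulin-responsive muscle, differed by 0.14 ± 0.07, and the glucose transporter gene Slc2a4 by 0.10 ± 0.07. Of the 27 measured members of the list, 20 lay above 0, with a median of 0.08, or 12 with a median of -0.01 without the second GW1516 array. As deposited, 20 lay above the median of all genes, and 17 with quantile normalization.

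The target kinase and its partners showed no called difference. Of 11 measured AMPK subunits and upstream kinases, 1 had an unadjusted p below 0.05. That is 9.09%, against 5.23% of all genes lower and 10.4% in either direction. This was Stk11, which encodes the AMPK kinase LKB1. It read 1171, 1238 and 1176 with GW1516 and 1027, 1021 and 948 with both drugs. The combination arrays all lay lower, by 0.26 ± 0.08, but the other Stk11 probe set gave 0.77. Of the catalytic subunit genes, Prkaa2 differed by -0.06 ± 0.11 and Prkaa1, at a low signal of 21.4 to 70.5 on these 6 arrays, by 0.16 ± 0.50. The muscle regulatory subunit gene Prkag3 differed by 0.04 ± 0.21. Ppard, the receptor of GW1516, differed by -0.34 ± 0.16, or -0.16 without the second GW1516 array, and the coactivator gene Ppargc1a by -0.10 ± 0.10. Among 20 measured genes of AICAR and purine handling, 1 had an unadjusted p below 0.05 (5%, against 5.15% of all genes higher). This was Adk, the adenosine kinase that phosphorylates AICAR. It read 1241, 1026 and 1007 against 1570, 1291 and 1599, with no overlap and a difference of 0.45 ± 0.13, while its other probe sets ranged from -0.27 to 1.29.

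The genes with the smallest p and no overlap that were higher with both drugs, 12 by rule, differed by 0.70 to 2.87 on the log2 scale. Ifngr2, a chain of the interferon-γ receptor, read 766, 517 and 610 with GW1516 and 1017, 1179 and 1098 with both drugs. The difference was 0.82 ± 0.14 with an adjusted p of 0.193 by limma, although a further probe set of the gene gave -0.04. Vapb, a tether of the endoplasmic reticulum, read 755, 689 and 454 against 1279, 1080 and 1394. Its difference of 1.01 ± 0.18 stood beside -0.19 with AICAR alone, and further probe sets gave 0.05 and 0.13. Clstn3, which encodes calsyntenin-3, read 6.35, 14.6 and 20.6 against 99.0, 81.5 and 91.3, a difference of 2.87 ± 0.53 from levels near the bottom of the scale. Adcy5, an adenylyl cyclase, read 27.5, 28.9 and 25.7 against 85.8, 131 and 109, a difference of 1.97 ± 0.38. Its GW1516 signals lay near 28.2, the mean level that a probe set needed to pass the filter on dim probe sets, and its further probe sets gave 0.35 and 0.99. The calcium channel gene Trpv6 differed by 1.46 ± 0.29 and the small GTPase gene Rab38 by 1.07 ± 0.20, with -0.06 at the other Rab38 probe set. The metalloprotease gene Adam19 read 28.6, 10.6 and 30.1 with GW1516, near or below that filter level, and 70.1, 85.1 and 77.3 with both drugs. Its difference was 1.89 ± 0.42, or 1.40 to 2.15 with 1 array left out. Bcl2, an inhibitor of apoptosis, differed by 1.15 ± 0.25, but its further probe sets gave -1.10 and -0.29. The other 4 were Sult1a1, above, and Spock3, 2810410L24Rik and Rnf111.

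Among the 12 that were lower, differences ran from -1.32 to -0.34, with Pfkfb3 the furthest from 0. Luc7l3, a factor of 5' splice site choice, read 1075, 1042 and 825 with GW1516 and 613, 708 and 602 with both drugs. No arrays overlapped, and the difference was -0.61 ± 0.11 with an adjusted p of 0.193 by limma. Srrm2, a scaffold of nuclear speckles, read 3534, 3440 and 3412 against 2301, 2588 and 2363, a difference of -0.52 ± 0.10, and was -0.29 with AICAR alone. Son, another speckle scaffold, differed by -0.36 ± 0.07, with 2066, 2126 and 1922 against 1667, 1586 and 1512. Further probe sets did not share these values, ranging from -0.05 to 0.42 for Luc7l3, -0.15 to 0.03 for Srrm2 and -0.51 to 0.23 for Son. Malat1, a long noncoding RNA of speckles and named after its values were seen, differed by -0.42 ± 0.11, with further probe sets from -0.69 to 0.43. Slc20a1, a sodium-phosphate transporter, read 264, 391 and 272 against 172, 170 and 167, a difference of -0.84 ± 0.17. Crtc3, a coactivator of CREB that AMPK-related kinases phosphorylate, read 344, 443 and 385 against 260, 256 and 246, a difference of -0.61 ± 0.13, and -1.19 at its other probe set. Fzd7, a Wnt receptor, differed by -0.52 ± 0.11 and by -0.51 at its other probe set. The remaining 5 were Ksr1, Paxx, Pbxip1, Prrc2c and Rit1. All 24 leading genes kept an unadjusted p below 0.05 without the second GW1516 array. They were picked for a small p and no overlap on arrays that this fit shares, so that count is a description and no separate test.

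Without the first GW1516 array, limma called 10 of 12769 genes (0.0783%), all higher with both drugs. They were Ifngr2, Vapb, Inppl1, Mdh1, Homer2, Ndufs8, 2310065F04Rik, Mtres1, Gatd3a and Psap, with differences of 0.40 to 1.15 and adjusted p-values of 0.026 to 0.045. The second GW1516 array, which stood apart, was still in this fit. Without the second instead, 0 genes were called, and the differences of these 10 were 0.16 to 1.09. Among them were Mdh1 at 0.16, Ndufs8 at 0.18, Gatd3a at 0.19 and Inppl1 at 0.35. With all arrays 6 of the 10 had no overlap, 3 had the first GW1516 array within the range of the combination arrays, and 1, Mdh1, had it above them. Mdh1, the cytosolic malate dehydrogenase, read 9877, 6337 and 7003 with GW1516 against 9075, 9442 and 9354 with both drugs. With all arrays the difference was 0.29 ± 0.12, and without the first GW1516 array it was 0.48, while further Mdh1 probe sets ranged from -0.07 to 0.25. Ndufs8, a subunit of respiratory complex I, read 6820, 4014 and 4752 against 6134, 6277 and 7002. Its first GW1516 array lay within the combination range and the other two below it, and its further probe sets ranged from -0.17 to 0.40. Without the third GW1516 array, limma called 2 of 12792 genes (0.0156%): Luc7l3 at -0.73, and Boll, a gene of low signal here, at 3.53. The genes outside the naming rule were chosen after their values were seen.

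Muscle atrophy and protein breakdown genes were mostly lower in the mean with both drugs, and this count rested on the second GW1516 array. Of 28 measured FOXO and atrophy genes, 23 lay below 0, with a median of -0.20, and 8 had an unadjusted p below 0.05 in that direction (28.6%, against 5.23% of all genes), or 2 without that array. That array was the highest of the 6 for 24 of the 28, and without it 14 lay below 0, with a median of 0.01. Fbxo32, which encodes the muscle ubiquitin ligase atrogin-1, read 1507, 11250 and 2607 with GW1516 and 2140, 1953 and 1749 with both drugs. Only the second GW1516 array was far out, and the difference of -0.87 ± 0.48 was -0.03 without it. Trim63, the ubiquitin ligase MuRF1, read 2209, 10730 and 2978 against 2276, 2263 and 2071, differing by -0.91 and by -0.22 without that array. Fbxo32 and Trim63 were chosen after their values were seen. Of 33 measured genes of the ubiquitin-proteasome system, 28 lay below 0 with a median of -0.17, and the second GW1516 array was the highest for 32. Without the second GW1516 array 19 lay below 0, with a median of -0.03. Psmd8, a subunit of the proteasome cap, read 4121, 7227 and 4990 against 3300, 3930 and 4128, a difference of -0.49, or -0.27 without that array. Psma2, a proteasome core subunit, read 2196, 2992 and 2321 against 2136, 2125 and 1849, a difference of -0.29, or -0.15 without it.

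Glucocorticoid-responsive genes, which overlap the atrophy list, had the same order. Of 17 measured, 12 lay below 0 with a median of -0.22, and without the second GW1516 array 8 did, with a median of 0.07. Cebpd, a transcription factor of stress responses, read 1093, 4628 and 1017 against 1169, 689 and 676, and Mt1, a metallothionein, read 807, 2999 and 1122 against 1046, 939 and 727. The second GW1516 array was the highest for both. Fkbp5, a chaperone of the glucocorticoid receptor, read 525, 2036 and 1005 against 1241, 1421 and 1318. Its difference was 0.37 ± 0.32, 0.87 without the second array and -0.11 without the first. With AICAR alone it was 1.30. Cebpd, Mt1 and Fkbp5 were chosen after their values were seen. Ddit4, which inhibits mTORC1, read 787, 2303 and 982 against 690, 554 and 593. All combination arrays lay below, by 0.99 ± 0.32, and by 0.53 without the second GW1516 array. Sgk1, a kinase of ion transport and cell survival, read 5043, 3896 and 4630 against 3608, 3703 and 3594, and its second GW1516 array was not the high one. Its difference was -0.31 ± 0.11, and -0.41 without that array.

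**Figure D3:**
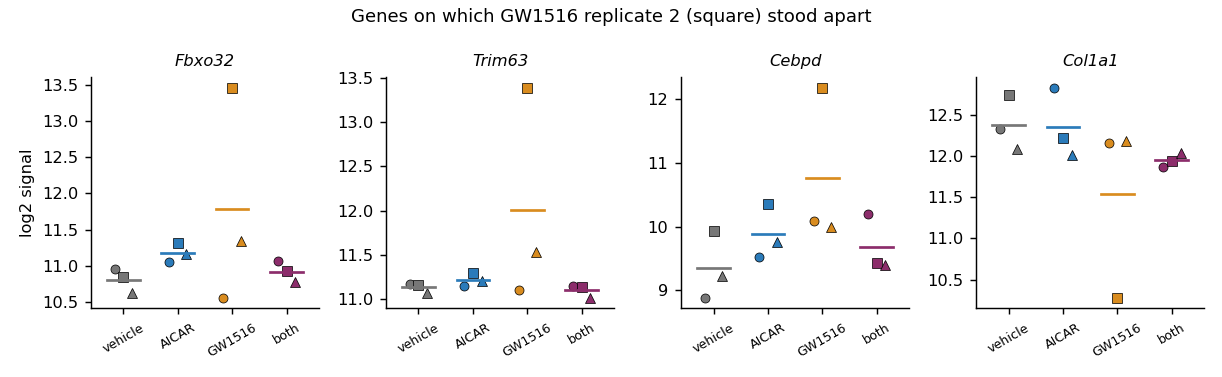
Log2 signal of Fbxo32, Trim63, Cebpd and Col1a1 on each of the 12 arrays, by group, with replicates 1 to 3 as circles, squares and triangles and a line at the group mean. The second GW1516 array (square) is the highest of 12 for the first 3 genes and the lowest for Col1a1. These genes were chosen after their values were seen, because that array stood apart on them.

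Mitochondrial genes lay mostly above 0. Of 66 measured oxidative phosphorylation genes, 59 were higher in the mean with both drugs, with a median of 0.13, and 15 had an unadjusted p below 0.05 in that direction (22.7%, against 5.15% of all genes). The first GW1516 array was the highest of the 6, above every combination array, for 41 of the 66, and the second was the lowest for 60. Without the second array 48 lay above 0, with a median of 0.04, and 1 had such a p. As deposited, 58 of the 66 lay above the median of all genes, and 55 with quantile normalization. Ndufb5, a complex I subunit, read 6897, 5589 and 6537 with GW1516 and 7486, 7185 and 7745 with both drugs. It was the member whose arrays did not overlap, and its difference was 0.24 ± 0.08, or 0.15 without the second GW1516 array. For the 22 measured genes of the TCA cycle and pyruvate entry, 20 lay above 0 with a median of 0.11, and without that array 18, with a median of 0.04. The first GW1516 array was the highest of the 6 for 10 of the 22. The median of all genes was exceeded by 20 of the 22 as deposited, and by 20 with quantile normalization. With AICAR alone, 56 of the 66 oxidative phosphorylation genes lay below 0, against 48% of all genes, with a median of -0.05.

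**Figure D4:**
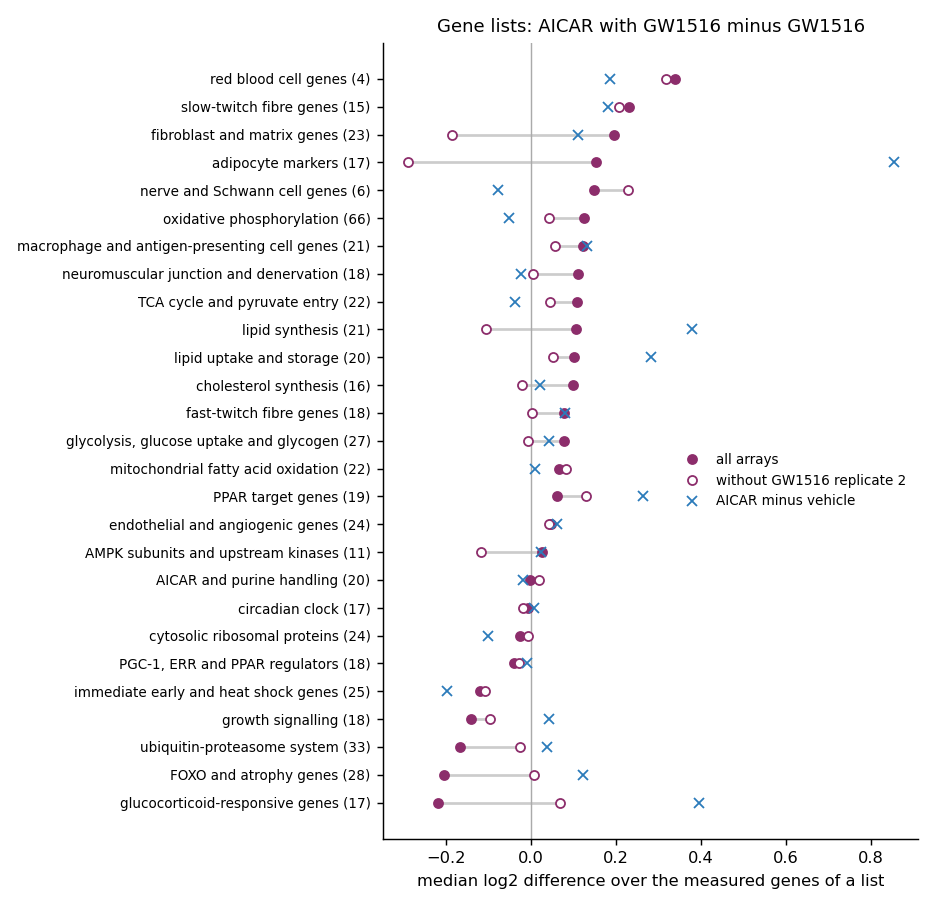
Median log2 difference of AICAR with GW1516 against GW1516 over the measured members of each of 27 gene lists (number of members in parentheses), with all arrays (filled) and without the second GW1516 array (open), and for AICAR against vehicle (crosses). The atrophy, glucocorticoid, proteasome, matrix and adipocyte lists move towards or across 0 when that array is left out.

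Of 25 measured immediate early and heat shock genes, 17 lay below 0, with a median of -0.12, and 17 without the second GW1516 array, with a median of -0.11. Klf4, an early response factor, read 251, 257 and 224 against 204, 179 and 178, a difference of -0.38 ± 0.13 that stood beside -0.37 with AICAR alone, and its other probe set gave 0.05. Junb, a subunit of AP-1, read 91.9, 103 and 57.0 against 12.7, 59.7 and 16.4, a difference of -1.81 ± 0.52 at a low signal, and the groups overlapped. Of 18 growth signalling genes, 13 lay below 0, with a median of -0.14, and 6 had an unadjusted p below 0.05 in that direction (33.3%, against 5.23% of all genes), or 2 without the second GW1516 array. Irs2, the insulin receptor substrate, read 478, 519 and 268 against 183, 298 and 232, which overlapped, and differed by -0.80 ± 0.25. Akt1, the kinase downstream of it, read 474, 824 and 568 against 430, 465 and 452, without overlap. Its difference of -0.43 ± 0.18 was -0.21 without the second GW1516 array, and further probe sets ranged from -0.54 to 0.36. Acvr2b, the myostatin receptor, differed by -0.52 ± 0.18, or -0.49 without that array, and by -0.09 at its other probe set. In the slow-twitch fibre list 1 of 15 members had an unadjusted p below 0.05 (6.67%, against 5.15% of all genes higher). Of the 15, 12 were above 0, and the median was 0.23. That median ranged from -0.06, without the first combination array, to 0.41, without the second, and it was 0.12, with 10 above 0, without the third GW1516 array. The member with such a p was Mb, myoglobin, at 13630, 9193 and 5816 against 16520, 9198 and 15610. Its spread within each group was as wide as the gap between them, and the difference of 0.57 ± 0.26 was 0.25 without the third GW1516 array. Myh2, the fast oxidative myosin, varied more, at 6894, 2437 and 1060 against 11650, 1952 and 6820. Myh4, the myosin of the fastest fibres, differed by 0.09 ± 0.09, and Myh7 was not among the genes tested. At the neuromuscular junction, Dok7, an activator of the receptor kinase MuSK, read 376, 220 and 305 against 400, 496 and 570. All combination arrays lay above, by 0.72 ± 0.18. Runx1, which denervated muscle induces, differed by 1.25 ± 0.37 without overlap, with further probe sets from -0.43 to 0.38. Dok7 and Runx1 were 2 of 18 measured members with an unadjusted p below 0.05 (11.1%, against 5.15% of all genes higher). The other 16 measured members of that list had an unadjusted p above 0.05.

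Markers of other cells varied from array to array within both groups. Bulk signals cannot tell fewer cells of a type from less RNA per cell. Of 23 measured fibroblast and matrix genes, 20 lay above 0 with a median of 0.20, and without the second GW1516 array 4 did, with a median of -0.19. Their summed signal was 43195, 22149 and 46600 on the GW1516 arrays and 40293 to 42532 on the combination arrays, so that 1 array stood low. Dcn, the matrix proteoglycan decorin, was the member whose arrays did not overlap, at 7541, 6582 and 7145 against 8516, 8182 and 8311, a difference of 0.24 ± 0.09. Col1a1, the main fibrillar collagen, read 4565, 1241 and 4641 against 3730, 3929 and 4194. Col1a1 and Adipoq were chosen after their values were seen. Of 17 measured adipocyte markers, 11 lay above 0 with a median of 0.15, and 3 without that array, with a median of -0.29. Their summed signal ranged from 26531 to 45503 with GW1516 and from 31591 to 48954 with both drugs. Adipoq, the adipocyte hormone adiponectin, read 1771, 1355 and 3054 against 3219, 1923 and 1094. The lipid synthesis genes Fasn and Scd1 followed the same arrays: Fasn read 1583, 456 and 1995 against 3018, 1586 and 751. The part of fat and matrix RNA in the values of the lipid lists was not tested. Macrophage genes summed to 4742 to 8175 with GW1516 and 5571 to 7383 with both drugs, and endothelial genes to 11641 to 13005 and 12435 to 13807. Adgrf5, a receptor of capillary endothelium, differed by 0.25 ± 0.11, and by 0.57 with AICAR alone, and the water channel gene Aqp1 differed by 0.22 ± 0.09. These were the endothelial members with an unadjusted p below 0.05, 2 of 24 (8.33%, against 5.15% of all genes higher). For 4 measured red blood cell genes the median difference was 0.34, and for 6 nerve and Schwann cell genes it was 0.15. Among the remaining lists, the median was 0.11 for 21 lipid synthesis genes, and -0.11 without the second GW1516 array. It was 0.10 for 16 cholesterol synthesis genes, -0.03 for 24 cytosolic ribosomal protein genes and -0.04 for 18 PGC-1, ERR and PPAR regulators.

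**Figure D5:**
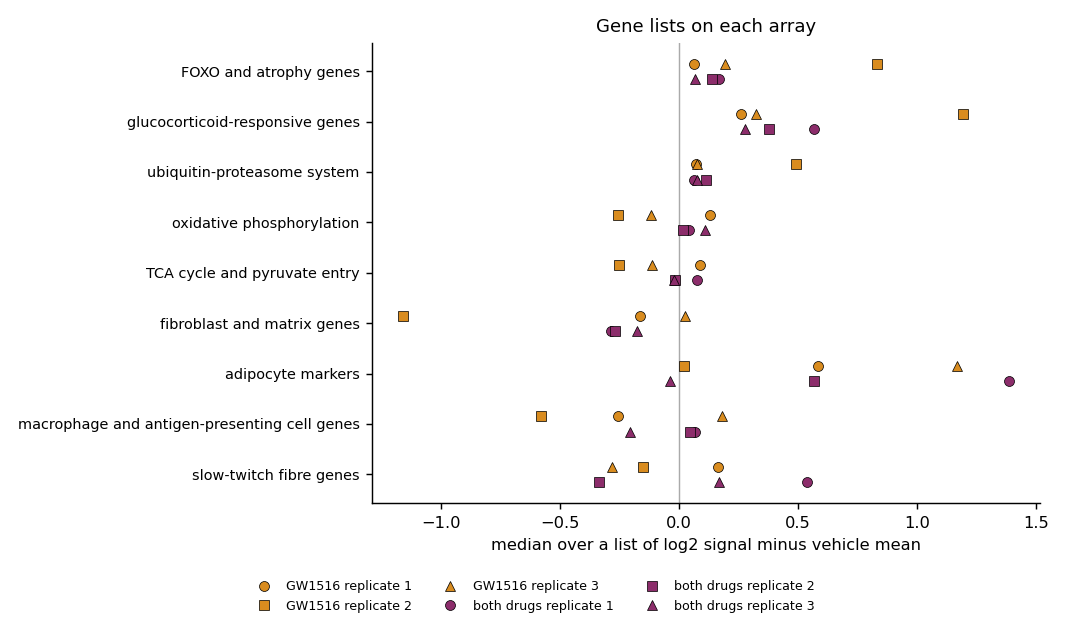
Median over each of 9 gene lists of the log2 signal of an array minus the vehicle mean, for the 3 GW1516 arrays and the 3 combination arrays (both drugs). The second GW1516 array lies far from the other 5 for the atrophy, glucocorticoid, proteasome and matrix lists, while for adipocyte markers and slow-twitch genes the arrays of both groups are spread and overlap.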

How the data were processed

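Intensity values were MAS5 signals, per the submitters' processing notes, deposited by the authors on a linear scale with a 2% trimmed mean of 200 per array. The MAS5 version is not given in the sources used here. A floor of 1, which 3531 of 540444 values needed, preceded log2. Probe sets were named from an annotation dated 2016. Of 45101, 64 controls and the dimmest 40% were left out, and the brightest probe set stood for each of 12771 genes. Limma 3.58.1 in R 4.3.3 fitted 4 group means over all 12 arrays, with moderated variances, two-sided tests and Benjamini-Hochberg adjustment over all genes. Called means an adjusted p below 0.05. The interaction is combination minus GW1516 minus AICAR plus vehicle.

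Genes named were 12 per direction of smallest p without overlap, 26 chosen genes, up to 3 of smallest p per list, and others said to be chosen after their values were seen. The members and lists (27, with 538 genes measured) were chosen with earlier results of these data known. Lists have no test and share some genes. Promoters are RefSeq's (GRCm38.p6). Code was tested on simulated data. Alternatives covered scaling, filter, pseudocount, probe sets, variance model, groups fitted, replicate block, threshold and each array left out. Figures used matplotlib 3.10.9 in Python 3.11.15.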

Additional observations from a re-analysis of the deposited data

Results flagged for a closer look

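In 4 named genes every array lay on one side with AICAR alone and on the other side with AICAR added to GW1516. The share of all genes with this pattern was not counted, so whether 4 is more than among other genes cannot be said. The 12.8% of all genes without overlap between combination and GW1516 concerns 1 comparison only. Without the second GW1516 array, the difference between these groups was -0.086 for Lpin1. The interaction was -0.56 on the log2 scale for Lpin1, 1.08 for Polh, -1.35 for Vsig10 and 0.99 for 2310065F04Rik. Limma gave each an adjusted p of 0.703, so none passed the threshold over 12771 genes. Polh, a DNA polymerase of lesion bypass, read 250, 265 and 267 with vehicle, 144, 140 and 186 with AICAR, 143, 150 and 181 with GW1516 and 190, 192 and 211 with both drugs. Vsig10 read 66.8, 73.8 and 66.9 with GW1516 and 36.3, 33.2 and 28.3 with both drugs. Polh, Vsig10 and 2310065F04Rik were chosen after their values were seen.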

How the results depend on the processing

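Under the 24 alternatives tried, the count of genes called by limma for combination against GW1516 was 0, except for 1 gene, Vsig10, without a trend in the variance, and for omissions of 1 array, which ranged from 0 to 10. It was 10 without the first GW1516 array and 2 without the third. The count called in the interaction was 0 under every alternative run. Genes with an unadjusted p below 0.05 numbered 822 when only these 2 groups were fitted, 1830 with median centring and 1021 to 1870 with 1 array left out, against 1326 as reported. Whether the replicate numbers pair the arrays is not stated in the labels. Deviations of same-numbered GW1516 and combination arrays correlated at 5.9e-05, -0.0002 and -0.044. Those of differently numbered arrays correlated at -0.035 to 0.036. No pairing was seen, but 3 arrays a group cannot exclude it. With the replicate block 0 genes were called and 1248 had an unadjusted p below 0.05.

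Of 99 genes named, 78 kept their sign under every alternative and 21 did not. Genes named for a small p without overlap tend to keep their sign when 1 array is left out, so this count is a description. With array weights Pdk4 was at 0.088, Mlycd at 0.0018, Prkaa2 at 0.041, Prkag3 at -0.10, Fasn at -0.11 and Lppos at -0.091. With median centring Ucp3 was at -0.0071, Plin4 at -0.011, Acadl at -0.048, Prkag3 at -0.078, Slc2a4 at -0.012, Myh4 at -0.028, Lppos at -0.11 and Slc30a1 at -0.11. With probe sets averaged per gene Bcl2 was at -0.082, Ppargc1a at 0.25, Stk11 at 0.26, Abhd5 at -0.048 and Slc30a1 at -0.65. With log2 of the signal plus 32, Slc30a1 was at -0.004455. Leaving out 1 array gave ranges across 0 of -0.22 to 0.28 for Pdk4, -0.037 to 0.18 for Acadl, -0.36 to 0.10 for Mlycd, -0.23 to 0.63 for Prkaa1, -0.14 to 0.077 for Prkaa2, -0.26 to 0.25 for Prkag3, -0.21 to 0.95 for Fasn, -0.15 to 1.14 for Scd1, -0.11 to 0.87 for Fkbp5, -0.22 to 0.73 for Col1a1, -0.15 to 0.092 for Lppos, -0.23 to 0.18 for Slc30a1 and -0.42 to 0.36 for Adipoq. The cause of these reversals was not tested. With 3 arrays a group the median standard error was 0.19.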
